A study of Mus musculus with 8 samples.

Results

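The 31 genes described here were listed as oocyte genes, but 3 of them (Uchl1, Bcl2l10 and Tcl1) are known also outside oocytes. Their reads were followed in 8 libraries of laser-captured granulosa cells as a measure of oocyte RNA carried over into the captured material. The genes were taken from a list drawn up by gene name, with earlier results of these data known. All 31 were found among 35087 named gene rows, and none was chosen by a threshold on its reads. The cKO group comprised 2 libraries from female mice with Hif1aflox/flox alleles and Foxl2-CreERT2, a tamoxifen-inducible Cre driven from Foxl2, a gene of granulosa cells and not of oocytes. Their genotype label reads Hif1a knockdown. The WT group comprised 6 libraries from Hif1aflox/flox females, so the floxed alleles were common to both groups. Tamoxifen (100 mg/kg) was injected daily for 5 days in mice bred to 3 weeks of age, and the ovaries were collected 7 days later. The study's question was what loss of HIF1 in granulosa cells does to follicle atresia, and oocyte transcripts bear on what else each capture held.

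Growing oocytes accumulate a store of maternal mRNA and secrete the zona pellucida, the glycoprotein coat between the oocyte and the innermost granulosa cells. They signal to these cells through GDF9 and BMP15, members of the TGF-beta family. The transcription factors FIGLA, NOBOX, LHX8 and SOHLH1 act early in this programme, and FIGLA activates the zona genes through E-boxes, whose core sequence is CANNTG.

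The libraries held 2054739 and 651656 reads on named genes in cKO and from 1594979 to 4719468 in WT. A value of 3 reads, used here as the level below which a gene was not told from 0, equals 4.60 CPM in cKO 2 and from 0.636 to 1.88 CPM in the other libraries, where CPM is the estimated count scaled to counts per 1000000 reads on named genes. Libraries are called cKO 1 and 2 and WT 1 to 6 after their titles. All 12 granulosa markers had reads in all 8 libraries, with a summed level of 5341 and 2192 CPM in cKO 1 and 2 and from 4294 to 56612 CPM in WT. Hif1a had 21.4 and 15.3 CPM in cKO 1 and 2, below the WT range of 30.2 to 102 CPM. The descriptions give library names beginning with cKO also to the WT samples, and the titles were followed. How follicles were chosen is not stated, and no label ties a library to an animal, a follicle or a follicle stage. Libraries may share an animal, and p-values measure only the spread between these libraries.

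Promoter windows of 4 members are printed because they stand for both patterns described below. Zp3 and Oosp1 had 4 or fewer reads in several libraries, whereas Tle6 and Uchl1 had 6 or more in all. Each window runs from 250 bases before to 50 after a start annotated by RefSeq (GRCm38.p6), 5′ to 3′ on the gene's strand, with each CANNTG in capitals. They lie at chr5:135979855-135980154 (plus strand), chr19:11691002-11691301 (minus strand), chr10:81600851-81601150 (minus strand, the first of 2 windows of that gene) and chr5:66675871-66676170 (plus strand).
Zp3: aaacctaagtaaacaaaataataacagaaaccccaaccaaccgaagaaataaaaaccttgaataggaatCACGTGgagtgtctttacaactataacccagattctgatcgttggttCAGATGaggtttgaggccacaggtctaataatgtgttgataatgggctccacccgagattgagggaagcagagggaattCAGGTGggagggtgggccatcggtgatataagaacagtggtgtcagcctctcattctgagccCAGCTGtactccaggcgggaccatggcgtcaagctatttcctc
Oosp1: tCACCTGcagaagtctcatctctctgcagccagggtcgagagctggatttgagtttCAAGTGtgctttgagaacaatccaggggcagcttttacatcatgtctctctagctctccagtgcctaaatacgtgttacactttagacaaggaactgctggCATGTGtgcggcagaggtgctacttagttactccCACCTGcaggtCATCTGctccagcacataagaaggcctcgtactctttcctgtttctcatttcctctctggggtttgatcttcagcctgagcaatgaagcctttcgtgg
Tle6: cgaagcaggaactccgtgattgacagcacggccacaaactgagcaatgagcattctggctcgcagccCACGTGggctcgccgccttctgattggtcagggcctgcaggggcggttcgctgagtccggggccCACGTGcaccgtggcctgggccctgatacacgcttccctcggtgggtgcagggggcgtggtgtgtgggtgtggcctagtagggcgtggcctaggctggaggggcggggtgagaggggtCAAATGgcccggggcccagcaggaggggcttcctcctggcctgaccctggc
Uchl1: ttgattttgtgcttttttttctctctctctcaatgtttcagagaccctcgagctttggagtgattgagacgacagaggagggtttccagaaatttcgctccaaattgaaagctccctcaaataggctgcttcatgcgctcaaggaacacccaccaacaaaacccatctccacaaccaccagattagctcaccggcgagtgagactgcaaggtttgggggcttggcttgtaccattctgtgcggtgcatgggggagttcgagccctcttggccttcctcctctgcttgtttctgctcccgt

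CANNTG, which reads alike on both strands, occurred 4 times in the Zp3 window, 5 times in that of Oosp1, 3 times in that of Tle6 and 0 times in that of Uchl1. Counts in 4 chosen windows do not tie CANNTG to either pattern. The window of Lhx8, a member with 0 reads in several libraries, also had 0. RefSeq windows were matched for 23 of the 31 members, H1foo among them under the name H1f8, and not for Zp1, Zp2, Gdf9, Nlrp14, Dppa3, Npm2, Mos and Bcl2l10. Of these 23 members, 21 (91.3%) held CANNTG in 1 or more windows, against 75.0% of the 27025 genes with a window. The form CAGGTG (or CACCTG on the other strand), which is one of the sequences that CANNTG covers and was chosen after the windows were read, occurred in 13 of 23 members (56.5%), against 22.6% of all genes with a window. TAATTG, searched on both strands, occurred in 8.70% of these members, against 9.22% of all genes with a window, and TATAAA in 13.0%, against 15.7%. No share was tested, and a match describes letters only. The members lie on 15 chromosomes, with most on chromosome 7 (5 members, Nlrp5 and Zp2 among them).

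The summed level of the 31 members varied widely between WT libraries, and both cKO libraries lay inside the WT range. It was 326 and 160 CPM in cKO 1 and 2, against 702, 1846, 202, 129, 131 and 4756 CPM across WT 1 to 6. WT 6 was 2.58 times above the next library, WT 2, and 36.8 times above the lowest, WT 4. WT 4 and 5 lay below both cKO libraries, and WT 3 lay between them. As a share of reads, the members took 0.0326% in cKO 1 (670 reads, 95% Clopper-Pearson interval 0.0302% to 0.0352%), 0.0160% in cKO 2 (105 reads, 0.0132% to 0.0195%) and 0.476% in WT 6 (21953 reads, 0.469% to 0.482%). These intervals cover counting error only, because amplified reads without molecular identifiers are not independent molecules. The group means were 243 ± 117 CPM in cKO (SD, n = 2), against 1294 ± 1819 CPM over the WT libraries (SD, n = 6). The WT spread thus exceeded the WT mean, and WT 6 held 65.6% of all member reads in the series. Without it the WT mean was 0.0602% of reads, against 0.129% with it, and the cKO mean was 0.0160% without cKO 1 and 0.0326% without cKO 2. In such bulk samples, fewer oocytes in a capture and less RNA per oocyte cannot be told apart. A share of reads also depends on how much other RNA the capture held.

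**Figure D1:**
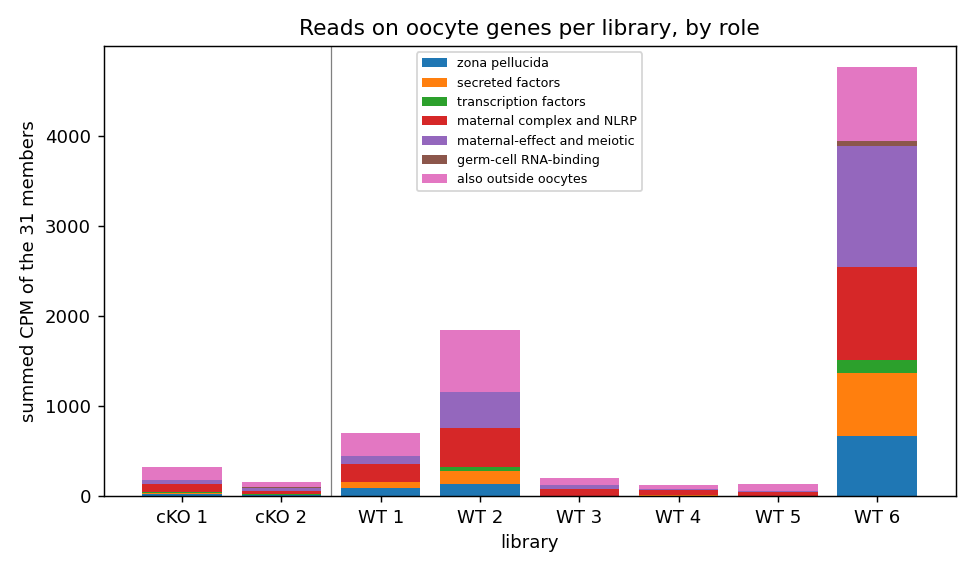
Summed CPM of the 31 oocyte members in each library (bars from 0), stacked by role, with cKO left of WT and no error bars because each bar is 1 library. WT 6 reaches 4756 CPM and WT 2 1846 CPM, while cKO 1, cKO 2 and WT 3 to 5 stay between 129 and 326 CPM.

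Most members had the same 2 highest WT libraries, while the order below them differed between members. Rfpl4, for example, had 16.7 CPM in WT 3 against 3.13 CPM in WT 1. Of the 31, 26 were highest in WT 6, and in 24 of these WT 2 came next among the WT libraries. The exceptions to WT 6 were Khdc3 and Uchl1 (highest in WT 2), Sohlh1 (WT 1) and Figla and Ddx4 (cKO 2), of which Sohlh1, Figla and Ddx4 had under 30 reads in the whole series. Members with 3 or more reads numbered 21 and 13 in cKO 1 and 2, against 25, 29, 15, 12, 11 and 28 in WT 1 to 6. Tle6, Uchl1 and Zp3 were the 3 members with 3 or more reads in all 8 libraries, and 12 members had no read in either WT 4 or WT 5.

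**Figure D2:**
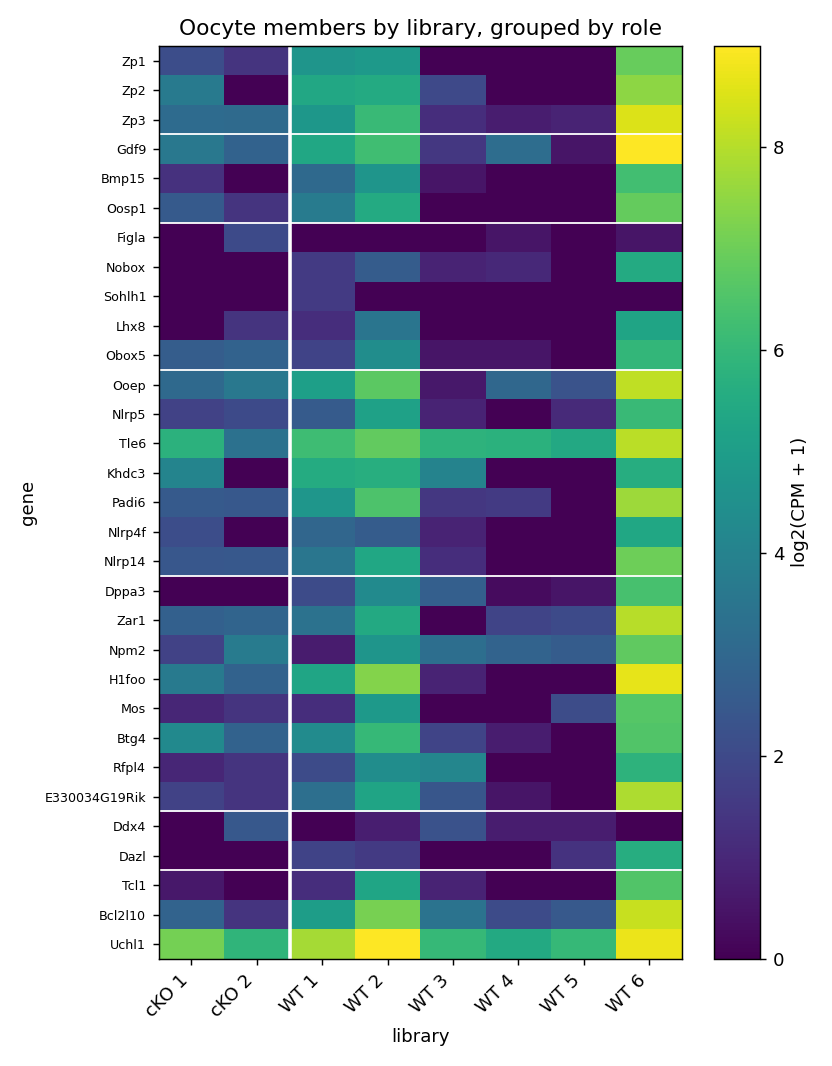
Level of each member in each library as log2(CPM + 1), cKO left of WT, with rows grouped by role. WT 6 and WT 2 are bright in most rows, whereas Tle6 and Uchl1 stay well above 0 in every column.

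The zona pellucida genes Zp1, Zp2 and Zp3 encode the structural glycoproteins of the coat. Zp3 (GRCm38 chromosome 5, 135980099 to 135988624, plus strand) had 7.79 and 7.67 CPM in cKO 1 and 2, from 16 and 5 reads, and 26.3, 67.8, 1.29, 0.636, 0.866 and 371 CPM across WT 1 to 6. The cKO libraries lay between the WT libraries, and WT 3 to 5 rested on 3 or 4 reads each. Its means were 7.73 ± 0.0807 CPM in cKO (SD, n = 2), against 77.9 ± 146 CPM over the WT libraries (SD, n = 6), and its log2 fold change was -3.40 ± 2.10 (SE), with an adjusted p = 0.514 in edgeR's quasi-likelihood test over all genes. Zp1 (chromosome 19, 10914287 to 10920632, minus strand) had 3.41 and 1.53 CPM in cKO, from 7 reads and 1 read, and 25.1, 27.9, 0, 0, 0 and 119 CPM across WT 1 to 6. It thus had no read in WT 3 to 5, and its log2 fold change was -3.41 ± 2.30 (SE, edgeR adjusted p = 0.548). Zp2 had 11.7 and 0 CPM in cKO and from 0 to 175 CPM in WT. Without WT 6 the log2 fold changes of Zp1, Zp2 and Zp3 were -1.95, -1.37 and -1.35.

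Among the secreted factors, Gdf9 (chromosome 11, 53431023 to 53437904, plus strand) had 11.2 and 6.14 CPM in cKO 1 and 2, against 40.1, 75.0, 1.72, 8.26, 0.433 and 507 CPM across WT 1 to 6. It was the member with most reads in WT 6, at 10.7% of the member reads there. The 8.26 CPM in WT 4 came from 39 reads, in a library where Zp1, Zp2, Bmp15 and Oosp1 had 0 reads. Its means were 8.67 ± 3.57 CPM in cKO (SD, n = 2), against 105 ± 199 CPM over the WT libraries (SD, n = 6), and its fitted log2 change was -3.57 ± 2.02 (SE, edgeR adjusted p = 0.477), or -1.49 without WT 6. Oosp1, which encodes an oocyte-secreted protein (chromosome 19, 11667460 to 11691150, minus strand), had 4.87 and 1.53 CPM in cKO 1 and 2, against 12.5, 44.1, 0, 0, 0 and 118 CPM across WT 1 to 6. Its zeros fell in the same libraries as those of Zp1, and its log2 fold change was -3.07 ± 2.24 (SE, edgeR adjusted p = 0.576). Bmp15 had 3 reads in cKO, all in cKO 1, and from 0 to 75.6 CPM in WT.

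The transcription factor genes had few reads. Figla and Sohlh1, basic helix-loop-helix factors, had 6 and 3 reads in the whole series, and did not pass the filter on low counts. The Figla reads were 2 each in cKO 2, WT 4 and WT 6, and those of Sohlh1 were all in WT 1. Nobox, a homeobox factor (chromosome 6, 43303674 to 43309554, minus strand), had 0 and 0 reads in cKO 1 and 2, against 1.88, 5.11, 0.858, 1.06, 0 and 44.4 CPM across WT 1 to 6. Of its 237 reads, 86.5% came from WT 6. Against the 3 reads that a count of 0 allows over both cKO libraries (1.11 CPM), its pooled WT level of 10.7 CPM was at least 9.64-fold higher. This bound covers counting error only and not the spread between libraries. Without WT 6 the pooled WT level was 1.82 CPM (edgeR adjusted p = 0.406 with all libraries). Obox5, of the oocyte homeobox family (chromosome 7, 15750131 to 15759800, plus strand), had 5.35 and 6.14 CPM in cKO 1 and 2, against 2.51, 20.2, 0.429, 0.424, 0 and 60.9 CPM across WT 1 to 6. Both cKO libraries exceeded 4 of the 6 WT libraries, and its fitted log2 change of -1.42 ± 1.84 (SE, edgeR adjusted p = 0.771) turned to 0.20 without WT 6. Lhx8, a LIM homeobox factor, had 1 read in cKO and from 0 to 37.3 CPM in WT.

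The subcortical maternal complex is an assembly of maternal proteins beneath the membrane of the oocyte, needed for the first cleavages of the mouse embryo. Of its genes, Ooep (chromosome 9, 78376109 to 78378725, minus strand) had 7.41 and 11.3 CPM in cKO 1 and 2, against 32.8, 106, 0.490, 6.99, 3.92 and 282 CPM across WT 1 to 6. The order of libraries was that of Zp3 at the top, and its log2 fold change was -3.15 ± 1.77 (SE, edgeR adjusted p = 0.475), or -1.82 without WT 6. Tle6 (chromosome 10, 81590904 to 81601073, minus strand) had 53.5 and 9.21 CPM in cKO, from 110 and 6 reads, and 73.4, 112, 55.8, 52.1, 42.7 and 267 CPM across WT 1 to 6. It kept from 130 to 246 reads in WT 3 to 5, in which H1foo had at most 2 reads. Its means were 31.4 ± 31.3 CPM in cKO (SD, n = 2), against 101 ± 85.2 CPM over the WT libraries (SD, n = 6), and its fitted log2 change was -1.63 ± 0.82 (SE, edgeR adjusted p = 0.435). Leaving out cKO 1 gave -3.71, and leaving out cKO 2 gave -0.94. Khdc3, which encodes FILIA, had 45.1, 49.2 and 48.0 CPM in WT 1, 2 and 6, nearly level where the summed members spanned 702 to 4756 CPM, and 15.6 and 0 CPM in cKO. Nlrp5, which encodes MATER, Padi6, an enzyme-like protein of the cytoplasmic lattices, and the NLRP genes Nlrp14 and Nlrp4f had from 0 to 4.87 CPM in cKO and from 0 to 202 CPM in WT, each highest in WT 6.

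Other maternal-effect and meiotic genes were led by H1foo, the oocyte linker histone gene (chromosome 6, 115944938 to 115950236, plus strand). It had 12.2 and 6.14 CPM in cKO 1 and 2, against 38.2, 161, 0.858, 0, 0 and 407 CPM across WT 1 to 6. The cKO libraries again lay between WT 1 and 3, and its log2 fold change was -3.46 ± 2.31 (SE, edgeR adjusted p = 0.546), or -2.11 without WT 6. E330034G19Rik (chromosome 14, 24293214 to 24309966, plus strand), for which no role is given here, had 2.43 and 1.53 CPM in cKO 1 and 2, against 8.78, 37.2, 4.29, 0.424, 0 and 239 CPM across WT 1 to 6, and its log2 fold change was -4.52 ± 2.41 (SE) with an adjusted p = 0.453 in edgeR. Dppa3, which protects methylation of the maternal genome, had no read in cKO 1 and 2, against 3.13, 18.6, 5.58, 0.212, 0.433 and 82.8 CPM across WT 1 to 6. It was the 1 tested member whose groups did not overlap, but WT 4 and 5 had only 1 and 2 reads. Its pooled WT level of 21.8 CPM was at least 19.6-fold above the limit of 3 reads over both cKO libraries (edgeR adjusted p = 0.379). That bound, too, covers counting error only, and without WT 6 the pooled WT level was 5.75 CPM. Zar1, a regulator of maternal mRNA, Mos, the kinase that holds mature eggs in meiosis, Btg4, an adaptor for mRNA deadenylation, and Rfpl4 had from 0.973 to 18.5 CPM in cKO and from 0 to 261 CPM in WT. In WT 3, 4 and 5, where 8, 15 and 18 of the 31 members had no read, Mos had 15 reads in WT 5, Rfpl4 had 39 reads in WT 3, and Npm2, a histone chaperone gene, had 20, 30 and 24 reads in WT 3 to 5.

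The germ-cell RNA-binding genes were Ddx4 and Dazl. Ddx4, the mouse Vasa helicase gene (chromosome 13, 112598333 to 112652475, minus strand), had 0 and 3 reads in cKO 1 and 2, against 0, 3, 9, 3, 3 and 0 reads in WT 1 to 6. It had no read in WT 6, where 3 reads would be 0.650 CPM and Gdf9 stood at 507 CPM. Its fitted log2 change of 0.94 ± 2.05 (SE, edgeR adjusted p = 0.875) turned to -4.69 without cKO 2, which held all its cKO reads, so neither value is a measured size. Dazl had 0 reads in cKO and 238 in WT, 92.0% of them in WT 6, and did not pass the filter on low counts.

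Members that are known also outside oocytes were Uchl1, Bcl2l10 and Tcl1. Uchl1, a ubiquitin hydrolase gene abundant in neurons too (chromosome 5, 66676091 to 66687234, plus strand), had 139 and 58.3 CPM in cKO 1 and 2, against 223, 511, 64.8, 43.4, 63.7 and 424 CPM across WT 1 to 6. It was the member with most reads in 6 of the 8 libraries and took 42.5% and 36.3% of the member reads in cKO 1 and 2, against 48.4% in WT 5. Its log2 fold change was -1.23 ± 0.94 (SE, edgeR adjusted p = 0.594). Bcl2l10, of the BCL2 family (chromosome 9, 75347758 to 75351632, plus strand), had 6.33 and 1.53 CPM in cKO 1 and 2, against 31.3, 142, 9.87, 3.18, 4.76 and 304 CPM across WT 1 to 6, in the order of the summed members at the top. Its log2 fold change was -4.23 ± 1.81 (SE, edgeR adjusted p = 0.381), or -3.12 without WT 6. Tcl1, a coactivator of AKT, had 1 read in cKO and from 0 to 92.7 CPM in WT.

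**Figure D3:**
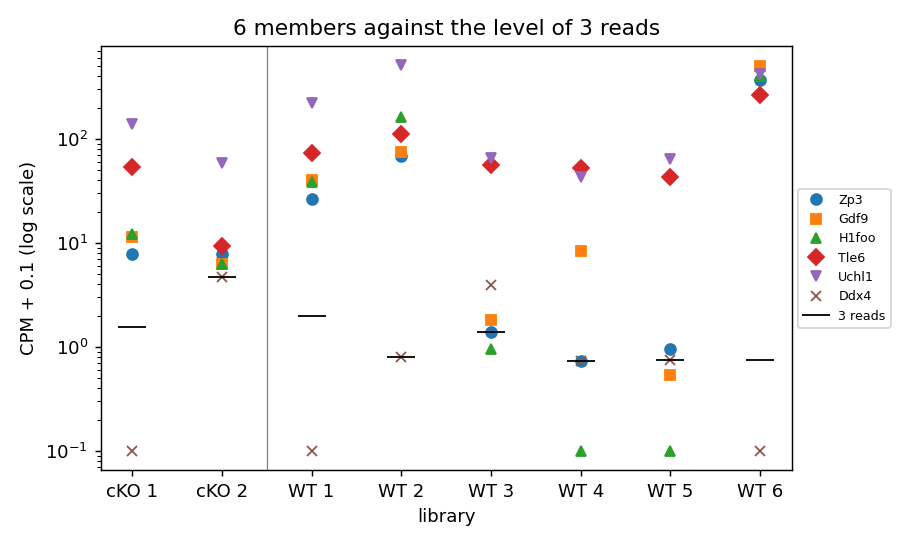
CPM + 0.1 of 6 members in each library on a log axis, cKO left of WT, with a dash at the CPM that 3 reads make in that library. Zp3, Gdf9 and H1foo lie at 371 to 507 CPM in WT 6 and, apart from Gdf9 in WT 4, near or below the dash in WT 3 to 5, whereas Tle6 and Uchl1 stay above it in every library and Ddx4 is near or below it in all but WT 3.

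With Tle6 and Uchl1 set aside, a choice made after their values were seen, the other 29 members summed to 134 and 92.9 CPM in cKO 1 and 2, against 406, 1222, 81.6, 33.7, 25.1 and 4065 CPM across WT 1 to 6. These 29 held 41.1% and 57.9% of the member reads in cKO 1 and 2, against 26.1% in WT 4, 19.1% in WT 5 and 85.5% in WT 6. Tle6 and Uchl1 thus made up most of the member sum in the WT libraries with the lowest sums. Whether their reads there came from oocytes was not tested.

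Per length, the members kept a similar order in the 2 libraries richest in them. In deposited TPM, the highest levels in WT 6 were Uchl1 at 487, H1foo at 425, Tle6 at 343, Zp3 at 311 and Gdf9 at 299 TPM. In WT 2 they were Uchl1 at 489, Tle6 at 211, H1foo at 150 and Bcl2l10 at 108 TPM, with Zp3 at 46.7 and Gdf9 at 36.5 TPM. Across the 31 members, which are not independent, Spearman's rho between these libraries was 0.88. It was 0.90 between cKO 1 and WT 1, the highest of all library pairs, but 0.58 between cKO 1 and 2 and 0.43 between cKO 2 and WT 1. Between WT 5 and 6 it was 0.44, with 18 members tied at no read in WT 5. By role, zona genes took 7.01% and 5.74% of the member reads in cKO 1 and 2, 14.0% in WT 6, 13.2% in WT 1 and 0.492% in WT 4.

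**Figure D4:**
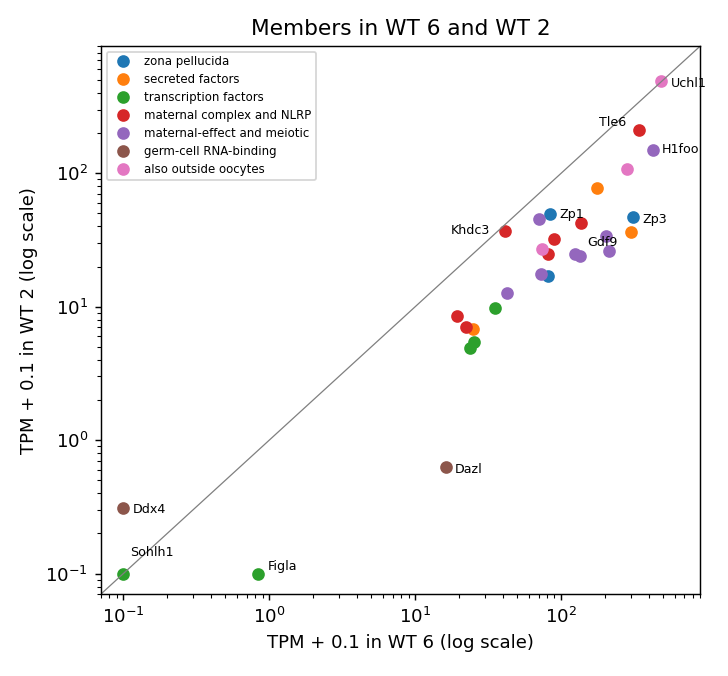
TPM + 0.1 of each of the 31 members in WT 6 and WT 2, both axes on a log scale, coloured by role, with the line of equal levels. Most points lie below the line, Uchl1 lies on it and Khdc3 close to it, and Ddx4, Figla and Sohlh1 lie at the lower left.

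The comparison of cKO with WT was run over 15102 genes, of which 28 were members. Because a member could pass the filter through WT 2 and 6 alone, the tested members are not a neutral sample of the list. At an adjusted p under 0.05, edgeR called 0 of the 28 members, against 0% of all genes tested. DESeq2 gave an adjusted p to 17 members and called 0 of them, against 3.47% of all genes to which it gave one. At an unadjusted p under 0.05, 3 members were lower in cKO, Nobox, Dppa3 and Bcl2l10, which is 10.7% of those tested and close to the 8.89% of all genes. None was higher, against 3.4% of all genes. The count of 3 depended on single libraries, as did the share of all genes at that threshold in either direction, which was 12.3% with all libraries. Leaving out cKO 2 gave 0 of 29 members, against 5.29% of all genes, and leaving out cKO 1 gave 1 of 29, against 12.7%. Leaving out WT 2 or WT 6 gave 1 of 23 members, against 12.2% and 10.9% of all genes. Leaving out WT 4 gave 5 of 27 members, against 9.01%, and leaving out WT 5 gave 7 of 27, against 9.51%. The groups did not overlap, with cKO lower, in 1 member (Dppa3), against 6.96% of all genes, and with cKO higher in 0 members, against 6.01%.

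The fitted log2 fold change lay below 0 in 27 of 28 members, against 52.7% of all genes tested, and Ddx4 was the exception. The median was -3.31 over the members and -0.08 over all genes, and -3.25 with the members that had no cKO read placed at their bound. The standard errors ran from 0.82 to 3.59, and adjusted p-values from 0.379 to 0.875. The members share libraries and depend on the same captures, so their common sign is not that of 28 separate measurements. Without WT 6 the median was -1.49. The direction also depended on the scale: limma on log2(TPM + 1) put 24 of 28 members below 0 and limma on log2(TPM + 0.1) put 21 there, with Oosp1, Obox5, Btg4 and Ddx4 above 0 on both scales and Zp1, H1foo and Nlrp14 on the second scale alone. With no filter on low counts, edgeR called 16 of the 31 members at an adjusted p under 0.05, against 478 of 25322 genes (1.89%).

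**Figure D5:**
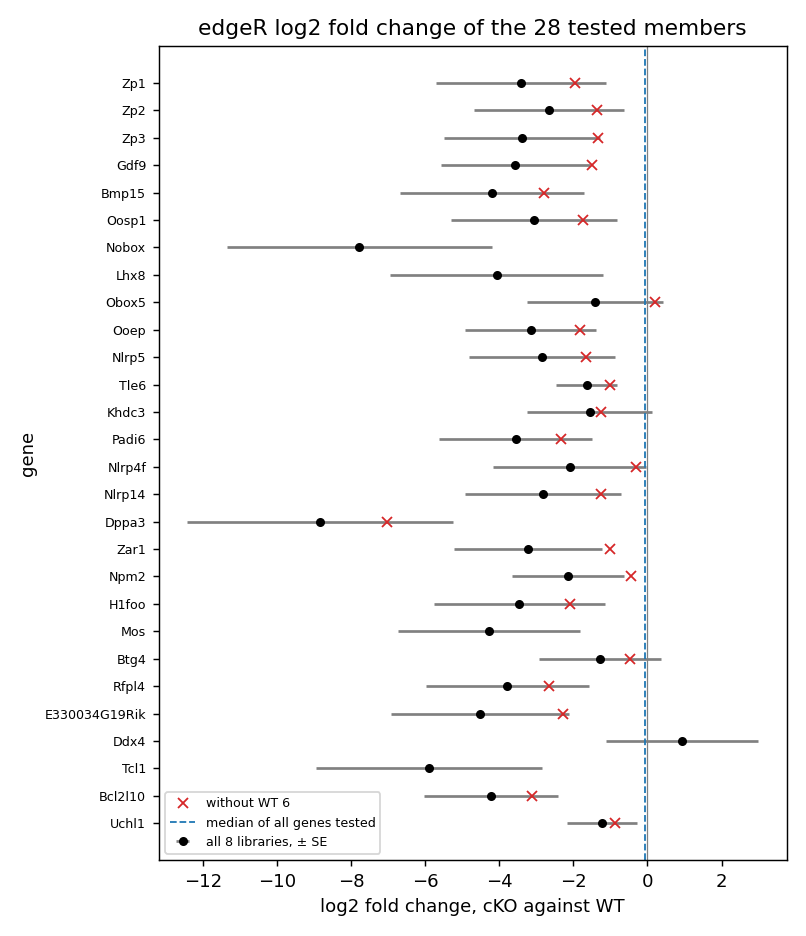
Log2 fold change of cKO against WT (edgeR) for the 28 tested members with its SE, the value without WT 6 where the gene was still tested, and the median of all genes tested (dashed). Nearly all points lie below 0 with wide errors and most move toward 0 without WT 6, and the values of Dppa3 and Nobox, which had no cKO read, are no measured sizes.

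Oocyte genes outside the list were highest and lowest in the same WT libraries. A second list of 40 summed to 99.2 and 137 CPM in cKO 1 and 2, against 241, 541, 41.0, 11.4, 9.85 and 1385 CPM across WT 1 to 6. WT 6 and 2 were again highest and WT 4 and 5 lowest. Unlike for the members, cKO 2 exceeded cKO 1, and WT 3 lay below both cKO libraries. By mean TPM it was led by Omt2b, Omt2a, Ybx2, an mRNA-binding protein gene, Zfp57, which maintains imprints, and Accsl. Omt2b had 16.8 and 6.14 CPM in cKO and from 0 to 125 CPM in WT, and Zfp57 had 15.6 and 9.21 CPM in cKO and from 0 to 138 CPM in WT. Omt2a had 16.8 and 0 CPM in cKO and from 0 to 93.9 CPM in WT, Ybx2 had 0.487 and 9.21 CPM in cKO and from 0 to 39.2 CPM in WT, and Accsl had 0.973 and 0 CPM in cKO and from 0 to 44.4 CPM in WT. Estimates for Omt2a and Omt2b were not whole in 4 libraries each, so their reads may be split between them. Of the 40, 29 were tested, with a median of -2.06. Of these, 27 (93.1%) had a value below 0, against 52.7% of all genes tested, and they too share libraries. A gene of this list could also pass the filter through WT 2 and 6 alone, so those tested are not a neutral sample of it. The list was also chosen with earlier results of these data known, so its signs are no independent check on the members. At an adjusted p under 0.05, edgeR called 0 of the 29, against 0% of all genes tested. At an unadjusted p under 0.05, 1 was lower in cKO, the meiotic kinase gene Wee2 (3.45%, against 8.89% of all genes).

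Markers of other cells did not rank the libraries as the oocyte genes did. Stroma markers summed to 1286 and 417 CPM in cKO 1 and 2 and from 16.5 to 1144 CPM in WT, with the lowest value in WT 6. Theca markers summed to 293 and 90.2 CPM in cKO and from 105 to 809 CPM in WT, endothelial markers to 293 and 298 CPM in cKO and from 72.6 to 456 CPM in WT, and blood markers to 422 and 76.7 CPM in cKO and from 22.3 to 343 CPM in WT. Endothelial and blood markers were also lowest in WT 6. No read fell there on 2 of 6 theca markers (Cyp17a1 and Insl3), 3 of 7 endothelial markers (Cdh5, Tek and Cldn5) and 2 of 7 blood markers (Hbb-bt and Lyz2). WT 1 also had 2 blood markers without a read. Theca markers were not lowest in WT 6, where they summed to 135 CPM, with 119 CPM from Aldh1a1. The endothelial marker Pecam1 had 60.4 CPM there. The granulosa marker Inhba had 337 and 69.2 CPM in cKO 1 and 2 and 58.8 and 79.5 CPM in WT 1 and 2, but from 2234 to 9686 CPM across WT 3 to 6, a group that holds both the highest and the lowest oocyte sums. The FSH receptor gene Fshr had 10.2 and 7.67 CPM in cKO and from 38.8 to 115 CPM in WT. Amh split the libraries the other way from Inhba. It had 585 and 252 CPM in cKO 1 and 2 and 875 and 957 CPM in WT 1 and 2, but from 2.57 to 174 CPM across WT 3 to 6. Foxl2 had 121 and 99.7 CPM in cKO, inside its WT range of 88.1 to 366 CPM. The part of these other cells, of depth and of mitochondrial RNA (8.87% and 10.5% of reads in cKO, from 1.42% to 3.65% in WT) in the values of the oocyte genes was not tested.

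The estimated counts of 4 members, Ooep, Zar1, Nlrp5 and Khdc3, were not whole numbers (beyond 0.01) in 6, 3, 1 and 1 libraries, which happens where reads are shared between rows, so their levels are less certain than those of the other 27. The libraries do not mark strand, and reads of overlapping antisense genes would be included in any member.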

How the data were processed

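RNA from laser-captured granulosa cells of 8 samples (2 cKO, 6 WT) was reverse transcribed and amplified with a Smart-seq2 protocol and made into Tn5 libraries, per the labels' protocols. The authors deposited 1 table per sample with estimated counts and TPM per gene, made with HISAT2, Salmon and build mm10 per the submitters' processing notes, which state no version or annotation. Rows without a gene name, 1548 of 36635, took 0.435% to 0.739% of each library and were not analysed.

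Estimated counts were rounded and tested with edgeR 4.0.16 (quasi-likelihood test, TMM, filterByExpr with a minimum count of 10, Benjamini-Hochberg adjustment over 15102 genes, with no term but group) under R 4.3.3. Raw CPM without TMM is printed as levels. DESeq2 1.42.0 and limma 3.58.1 on log2(TPM + 1) or log2(TPM + 0.1) were alternatives, beside other scalings and filters, a replicate block and each library left out. No 2 libraries agreed within sampling noise (chi-square per degree of freedom from 13.0 to 99.5 over 28 pairs). The members and gene lists were chosen with earlier results of these data known. The genes given in full were, of the members tested in each role, the 2 with the highest mean TPM (Ddx4 was the only RNA-binding gene tested), with Zp3, Gdf9, Figla, Ddx4 and Bcl2l10 always, and the 5 genes of the second list with the highest mean TPM. Other members given with values were picked with those values in view. Gene positions are from GENCODE M21 (GRCm38, the assembly also called mm10).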

Additional observations from a re-analysis of the deposited data

Results flagged for a closer look

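In the 6 WT libraries, 15 of 29 summed or single-gene levels had a highest library whose gap to the next, divided by the range, passed Dixon's 95% critical value of 0.625, and 14 of these were in WT 6. Chance flags about 1 in 20 groups of normally distributed values. CPM with zeros and a long upper tail is not so distributed, so that rate does not hold here. The share of all genes flagged was not computed, so the 15 are not a measured excess. The values also share libraries and genes. In WT 6 the 31 members summed to 4756 CPM, and the 29 without Tle6 and Uchl1 to 4065 CPM. By role, the sums that stood apart there were 665 CPM for the zona genes, 700.2 CPM for the secreted factors, 143 CPM for the transcription factors, 1345 CPM for the maternal-effect and meiotic genes and 47.4 CPM for the RNA-binding genes. Single genes that stood apart there were Zp3 at 371 CPM, Zp1 at 119 CPM, Gdf9 at 507 CPM, Obox5 at 60.9 CPM, Nobox at 44.4 CPM, Tle6 at 267 CPM and E330034G19Rik at 239 CPM. The other value was Ddx4 at 3.86 CPM in WT 3, from 9 reads.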

How the results depend on the processing

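Over all genes, edgeR called 0 at an adjusted p under 0.05 (1855 at an unadjusted p under 0.05), against 478 with no filter, 269 by DESeq2, 5 by limma on log2(TPM + 1), 12 by limma on log2(TPM + 0.1) and 1 with the replicate block. Leaving out a library gave from 0 to 1. The 3 of 28 members past an unadjusted p of 0.05 (12.3% of all genes) became 25 of 31 with no filter (13.8% of all genes), 1 of 5 with at least 10 reads in 6 libraries (16% of all genes), 1 of 28 by limma on log2(TPM + 1) (13.9% of all genes) and 15 of 28 with the replicate block (1.19% of all genes), and from 0 to 7 with a library left out (5.29% to 20.2% of all genes). The members called at an adjusted p, 0, became 16 of 31 with no filter (1.89% of all genes). Replicate numbers 3 to 6 occur in WT alone. With the replicate block, the group effect thus rests on cKO 1 and 2 against WT 1 and 2, without WT 6. The median log2 fold change of -3.31 was -0.91 by limma on log2(TPM + 0.1), -2.71 with the replicate block and from -4.08 to -1.49 with a library left out. The cKO mean share of 0.0243% was 0.0118% for the second list and 0.0113% without Tle6 and Uchl1, the last chosen after seeing the data.

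Of 205 alternatives over 13 single members, 189 kept direction and, where an adjusted p was given, side of the threshold. Of the others, 8 with no filter passed it and 8 changed sign. DESeq2 gave no adjusted p to Obox5, Nobox and Ddx4, which were counted by direction alone. By limma on log2(TPM + 0.1) the values were 1.18 for Zp1, 1.51 for Oosp1, 1.13 for Obox5 and 0.90 for H1foo, and by limma on log2(TPM + 1) they were 0.00896 for Oosp1 and 0.22 for Obox5. With a library left out, Obox5 ran from -1.64 to 0.20 and Ddx4 from -4.69 to 2.01. The cause of these changes was not tested. Replicate numbers were shared by 2 libraries a group, and the deviations of same-numbered libraries correlated at -0.26 and -0.14 over 14047 genes, so the numbers were not taken as pairs. Depth limits cKO 2 most, where 1 read is above the level of several members in WT 3 to 5, and with 2 cKO libraries the cKO spread rests on 1 difference.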
